A study of Mus with 5 samples.

Results

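The retinoic acid receptor RARα is a ligand-activated transcription factor that binds DNA together with an RXR partner. Retinoic acid (RA), made from vitamin A, exchanges corepressors for coactivators on the DNA-bound receptor. In T cells RA is known for inducing the gut-homing receptor CCR9. BATF is an AP-1 family factor that pairs with JUN proteins and IRF4 on DNA and is needed for effector differentiation of CD8 T cells.

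In ChIP-seq the DNA bound by a protein is pulled down with an antibody and sequenced, and a place where fragments accumulate is called a peak. The sites described here are those where RARα was called both in control cells and after RA. They were defined on chromosomes 1 to 19, X and Y as control peaks that had an RA peak at most 5 kb away, together with RA peaks that had a control peak at most 5 kb away. Of 1160 RARα control peaks 111 qualified (9.57%), as did 98 of 565 RARα RA peaks (17.3%), so that 209 of 1725 RARα peaks are members. Member peaks that lie within 5 kb of each other were joined into 97 kept sites, of which 82 consist of 1 peak from each list.

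Naive CD8 T cells from wild-type mouse spleen had been activated for 24 h with antibodies to CD3 and CD28 and IL-2, and rested for 24 h in IL-2 at 100 U per ml. RA at 50 nM was then added for 1 h or left out (control), and RARα or BATF was precipitated. The sample labels name differing interleukins for different samples and do not say whether the cells used for the IgG background received RA. Each of the 4 lists was called on 2 pooled ChIP files against 1 IgG file, which all 4 lists share. For RARα the control pool had 22655611 fragments and the RA pool 22475060. For BATF these were 23110180 and 16424269, and the IgG file had 11410673. The sources used here do not state whether the 2 pooled files come from separate cultures, so each condition has 1 list. The spread between replicates is unknown, and conditions are compared without a test. Fold enrichment is the height of a peak over the local IgG level. The lists hold binding and no expression, so the labelled cell type could not be checked against its markers, and binding in other cells of the culture cannot be told apart from binding in CD8 T cells.

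The kept sites were precise in position. The strongest control and RA peaks overlapped at 88 of the 97 sites, and their summits lay a median of 37.0 bp apart at these 88. The summits were within 50 bp of each other at 51 sites, within 100 bp at 71 and within 200 bp at 81, and the largest shift was 331 bp, in an intron of Nedd9. At the 9 other sites the strongest peaks did not overlap, although at Dusp5 and in the Ifngr1 intron a weaker control peak overlapped the RA peak, so that 90 sites held an overlapping pair.

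**Figure D1:**
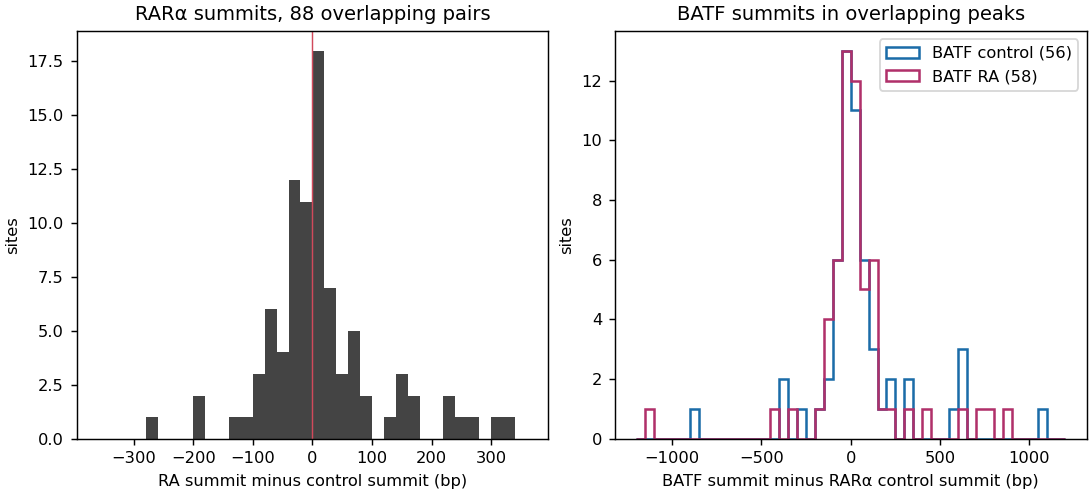
Left, the distance in bp from the RARα control summit to the RARα RA summit at the 88 sites whose strongest peaks overlap, counted per 20 bp. Right, the distance from the RARα control summit to the summit of the overlapping BATF peak, counted per 50 bp, for BATF control (blue) and BATF RA (purple). Where several BATF peaks overlapped, the one of nearest midpoint was taken, which favours short distances. Both kinds of distance centre on 0.

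At the edge of the definition, the last control peaks to qualify were 2 on chromosome 13, which lay 3523 bp and 4554 bp from an RA peak, and a second, weaker Lef1 peak of 2.58-fold at 4973 bp. The first to miss was a peak of 3.55-fold at Pisd, 6573 bp from an RA peak. It was followed by a peak of 4.23-fold in the Gimap cluster at 6928 bp and a peak of 2.77-fold near Lif at 6933 bp. No member lay between 4973 and 6573 bp.

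Members came from 18 of the 21 chromosomes. Chromosomes 9 and 11 held 8 sites each. Chromosome 18 held no kept site, although it had 37 RARα control peaks and 19 RA peaks. Most sites stood alone, with 4 exceptions of neighbours within 100 kb: 2 sites at Ifngr1, 2 between Naif1 and Fam102a, and 3 in the Gimap cluster of lymphocyte GTPases, which make up the other 2 neighbouring pairs.

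The kept sites include the tallest RARα peak of each list. Of 16 control peaks with a fold enrichment of at least 10, 10 were kept. At a fold of at least 5, 52 of 112 control peaks and 24 of 27 RA peaks were kept. Kept RA peaks had a median fold enrichment of 3.92 (quartiles 3.03 to 4.92), against 2.78 (2.63 to 3.03) for the 467 RA peaks without a control peak nearby. These values come from the same 2 lists that chose the members and are given as a description. The 6 tall control peaks that were not kept lay at Lig1 (17.8-fold), Art2b (13.8), Asb2 (11.2), Tbc1d5 (10.9), Sgip1 (10.6) and Mtmr3 (10.1).

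RARα fold enrichment was lower with RA at 77 of the 97 kept sites (79.4%) and higher at 20. Its median was 5.32 in the control (quartiles 3.62 to 7.06, range 2.30 to 29.3) and 4.05 with RA (quartiles 3.03 to 4.92, range 2.26 to 11.5). The median of the site-by-site ratio of RA to control was 0.775 (quartiles 0.581 to 0.943). At 38 sites (39.2%) the fold was lower by at least 1.5 times, and at 6 (6.19%) it was higher by at least 1.5 times. The IgG level under the summits was similar in both lists, at a median of 1.38 times its lowest level in the control and 1.33 times with RA. These counts use the contrast that chose the members.

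**Figure D2:**
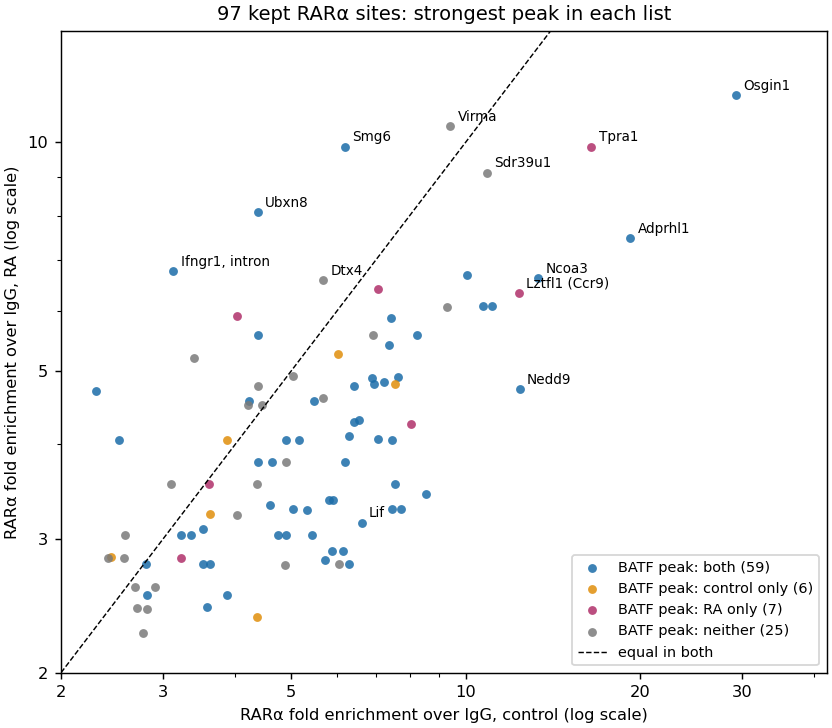
RARα fold enrichment over IgG at the 97 kept sites, control on the horizontal and RA on the vertical axis, both on a log scale. Each point is 1 site, coloured by the list that holds a BATF peak within 5 kb, and the dashed line marks equal values. There are 77 points below the line, and of the 20 above it 10 are grey sites without BATF.

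At most single sites counting error covered the difference between the lists. The exact 95% interval of the ratio of RA to control fragments, scaled to the 2 pool sizes, lay below 1 at 22 sites and above 1 at 2 sites, and it included 1 at 73. The interval covers counting error only, and whether sites that include 1 lack depth or a difference was not tested. It uses the contrast that chose the members, so these counts are a description. The difference was graded by height in the control. Among the 33 sites of highest control fold the median ratio was 0.637 and 32 were lower with RA. Among the next 32 it was 0.751 with 26 lower, and among the 32 lowest 0.954 with 19 lower. The control fold both sets these classes and divides the ratio, so a high chance value in the control lowers the ratio, and that share of the grading was not tested.

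The tallest kept site lay between genes on chr8:119423639-119424246 (mm10), 1636 bp from Osgin1, an oxidative stress-induced growth inhibitor. It held 131 fragments in the control and 53 with RA, a fold enrichment of 29.3 and 11.5. The second, at chr8:13213308-13214155, lay 4633 bp from Adprhl1 in a region that also holds Lamp1, the lysosomal membrane protein that marks degranulating killer cells. It had 152 fragments and 58 with RA, and its fold went from 19.2 to 7.47. The fragment ratios were 0.408 (0.291 to 0.565) and 0.385 (0.279 to 0.524). Both sites were picked for their control fold, and the lists compared also chose the members, so these ratios are a description. Each remained among the 10 highest kept RA peaks.

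Coregulators of nuclear receptors had 2 kept sites. Ncoa3 encodes a coactivator that ligand-bound nuclear receptors recruit, and its intron 1 carried a peak at chr2:166029977-166032036 with 56 fragments in the control and 30 with RA. The fold there was 13.3 and 6.62. Nrip1 encodes a corepressor of ligand-bound nuclear receptors. The site assigned to it lay 61627 bp away and had 16 and 19 fragments, a difference within counting error (ratio 1.20, 0.583 to 2.49). Apart from the coregulators, a site in the annotated promoter of Gm7904, 5556 bp from Smarca4, the BRG1 ATPase of SWI/SNF remodelling complexes, fell from 29 to 12 fragments (ratio 0.417, 0.194 to 0.843). Of the 13 retinoid receptors and coregulators examined only Ncoa3 and Nrip1 had a kept site.

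Of 11 genes known to be induced by RA in T cells, 6 were assigned a kept site by the authors' annotation, among 9 with an RARα control peak. Over all annotated genes with a control peak the share with a kept site was 12.7% (225 of 1771). The list had been assembled with earlier results of these data known, so its count is a description. Ccr9, P2rx7, Nt5e, Lif, Gfi1 and Dtx4 had a kept site. Itgb7, Art2b and Asb2 had control peaks without an RA peak nearby.

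The Ccr9 site lay 25918 bp before the start coordinate of the gene and 23126 bp from its neighbour Lztfl1, at chr9:123740751-123741293. It held 47 RARα control fragments and 24 RA fragments, and the fold went from 12.4 to 6.32 (fragment ratio 0.515, 0.301 to 0.859). Its summits were 7 bp apart. Lif encodes a cytokine of the IL-6 family. The peak annotated to its promoter went from 45 to 27 fragments (ratio 0.605, 0.361 to 0.996), an interval that only just excludes 1. Its fold went from 6.61 to 3.15, at an IgG level of 5.96 in the control and 7.88 with RA. Nt5e encodes CD73, which makes adenosine from AMP, and the peak annotated to its promoter went from 40 to 22 fragments (ratio 0.554, 0.314 to 0.956).

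The other sites of this group had ratios whose intervals include 1. Gfi1, a zinc finger repressor, had 21 and 13 fragments at its promoter. Dtx4, a Deltex ubiquitin ligase of the Notch pathway, had 21 and 25 fragments in a peak inside the gene, at 5.67-fold and 6.58-fold. P2rx7 encodes the ATP-gated channel P2X7, and the peak in the annotated promoter, over a LINE repeat, had 44 fragments in the control and 49 with RA. Its fold enrichment nevertheless went from 5.66 to 4.61, since the IgG level used by the peak caller was 6.95 in the control and 9.85 with RA.

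Of 14 conventional RAR targets, such as Cyp26a1 and Cyp26b1, which encode RA-degrading enzymes, 1 had an RARα control peak (Rara itself) and 2 had an RARα RA peak. None had a kept site, and for 13 of the 14 there was no control peak that could have been kept. Among 21 effector transcription factors 13 had a control peak and 1 a kept site, which was annotated to Fos at a distance of 90479 bp and lay 8133 bp from Tmed10. Of 15 genes of the T cell receptor complex and its proximal signalling 9 had a control peak, among them Cd3d, Cd8a and Zap70, and none had a kept site. Memory and stemness genes had 9 with a control peak of 13 and 1 kept, Lef1, and effector molecules 9 of 18 and 1 kept, Ifngr1. Inhibitory receptors and exhaustion factors had 3 of 10 and 1 kept, Btla, whose site lay 18948 bp away near Atg3. In all, 12 of 115 listed genes had a kept site, or 12 of the 57 with a control peak, and 6 of the 12 belong to the RA-induced genes. Against 12.7% of all genes with a control peak, counts of 0 or 1 among the 1 to 13 listed genes with a control peak are too small to set these lists apart.

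Lef1 encodes a TCF family factor of naive and memory T cells. Its intron 3 carried a peak at chr3:131157115-131157811 with 63 control and 35 RA fragments, and the fold was 10.7 and 6.08 (fragment ratio 0.560, 0.359 to 0.860). Ifngr1, the ligand-binding chain of the interferon-γ receptor, had 2 kept sites. The first lay 86792 bp from the gene and had 36 and 28 fragments. The second lay in an intron, where the strongest control peak had 12 fragments and the RA peak 26 (ratio 2.18, 1.06 to 4.75), but these peaks were 584 bp apart. A weaker control peak of 2.44-fold and 16 fragments overlapped the RA peak directly, so this ratio partly sets different positions against each other.

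Other tall sites lay at genes of varied function. Nedd9, a Cas family adaptor in cell adhesion and migration, had 52 and 27 fragments. Its fold of 12.4 and 4.73 gave the lowest fold ratio of the 97 sites (0.381). The IgG level at these peaks was higher in the RA list (4.92) than in the control list (3.27). Its fragment ratio was 0.523 (0.316 to 0.849), where the lowest of the 97 was 0.373. Galm, a galactose mutarotase, had 88 and 47 fragments in an intron. The site nearest Lilr4b, a gene of the leukocyte immunoglobulin-like receptor family, had 33 and 16, at an IgG level of 2.98 and 3.94. All 3 had fragment ratios with intervals below 1. The intergenic site between Nsmce1 and the cytokine receptor genes Il21r and Il4ra had 39 and 32 fragments, which counting error covers.

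Sites among the 10 highest RA folds were not all lower with RA. Virma encodes a scaffold of the RNA m6A methyltransferase complex, and its intronic site had 37 fragments in the control and 43 with RA. Its fold of 9.40 and 10.5 made it the second highest kept RA peak. The site near Sdr39u1, in a region with the mast cell chymase gene Cma1 and with Nfatc4, had 53 and 44 fragments, at 10.9-fold and 9.11-fold, a difference within counting error. Smg6, an endonuclease of nonsense-mediated decay, had 23 and 38 fragments in an intron at chr11:75154090-75154653 (ratio 1.67, 0.967 to 2.93). Ubxn8 had 16 and 31 fragments at a site 1342 bp away (ratio 1.95, 1.04 to 3.82). With the Ifngr1 intron it was 1 of the 2 sites whose interval lay above 1.

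Letmd1 and Gpsm2 were the remaining sites among the 5 with the highest fold ratio. Their fragments went from 14 to 19 and from 15 to 20, within counting error, and the IgG level at these peaks was lower in the RA list (3.94 and 3.46) than in the control list (4.96 and 5.96).

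**Figure D3:**
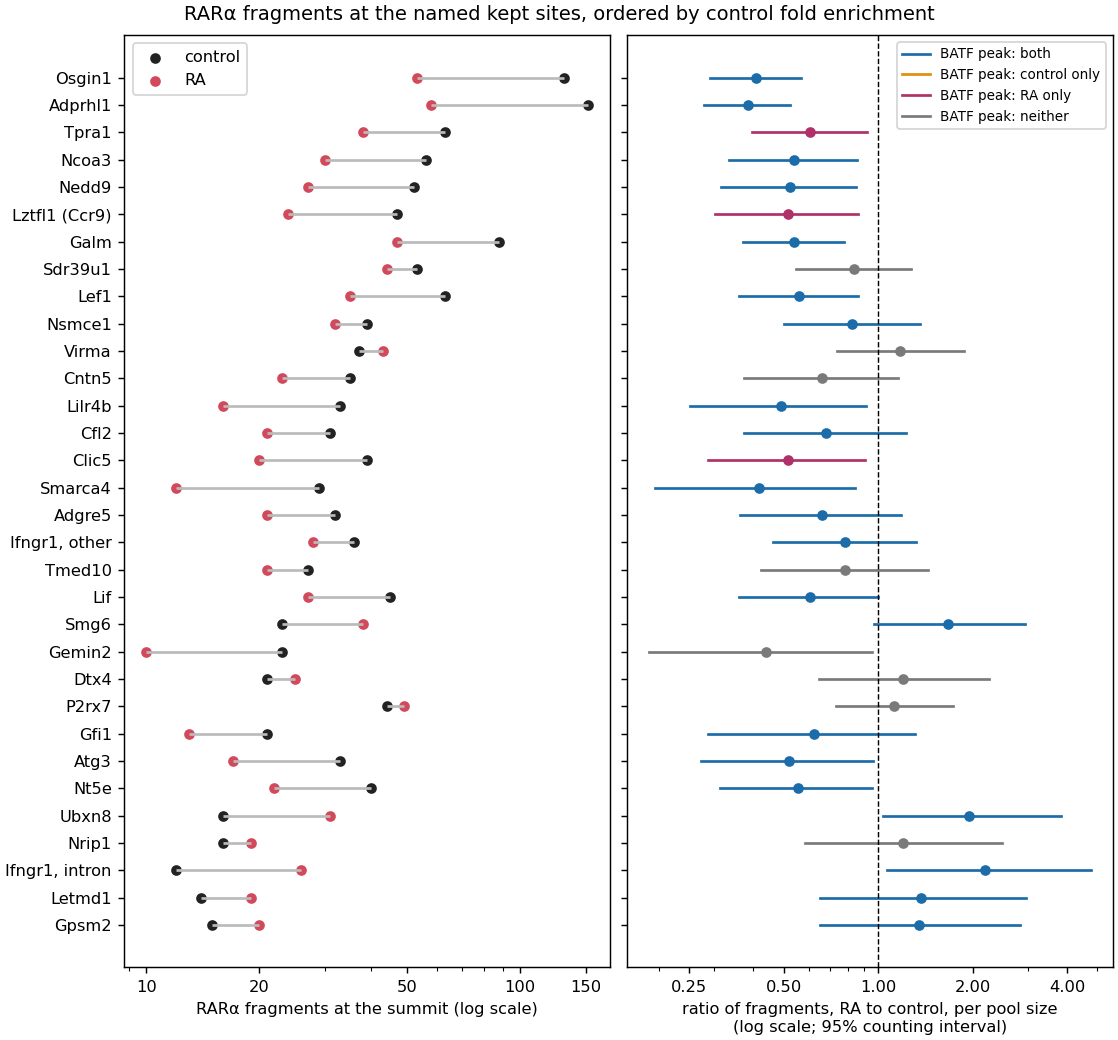
RARα at the named kept sites, ordered by control fold enrichment. Left, fragments at the summit in the control (black) and with RA (red) on a log scale; right, the ratio of RA to control fragments scaled to the pool sizes, with its exact 95% counting interval on a log scale and coloured by the BATF list that has a peak there. Osgin1 and Adprhl1 at the top have the narrowest intervals, both below 1, and only Ubxn8 and the Ifngr1 intron have intervals above 1.

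BATF was not used to choose the sites. Of the 97 kept sites 72 had a BATF peak within 5 kb: 59 in both BATF lists, 6 in the control list alone and 7 in the RA list alone. No BATF peak was found at 25. Among RARα control peaks, 71.2% of the kept ones (79 of 111, Wilson 95% interval 62.1 to 78.8) and 61.7% of the others (647 of 1049, 58.7 to 64.6) had a BATF control peak within 5 kb, against 62.6% over the whole list. Kept peaks are taller, and within classes of similar p the shares did not stay in this order. Between a −log10 p of 3 and 5 the share was 70.0% of 20 kept peaks and 50.9% of the others. In each higher class the share was lower for kept peaks. From 5 to 7 it was 64.3% of 14 kept peaks and 76.3% of the others, and from 7 to 20 71.7% of 46 and 79.3%. From 20 on it was 74.2% of 31 and 78.9%.

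Among RARα RA peaks the kept ones had BATF nearby more often than the rest. By the rule each lies within 5 kb of an RARα control peak, and RARα control peaks are often near BATF. Of the control peaks that were not kept, 52.7% (553 of 1049) had a BATF RA peak within 5 kb. The contrast below therefore sets places with an RARα control peak against places without one, and is not particular to kept sites. A BATF RA peak lay within 5 kb of 67.3% of them (66 of 98, 57.6 to 75.8), against 5.14% of the RARα RA peaks without a control peak nearby (24 of 467, 3.48 to 7.53) and 15.9% over the whole RA list. At a −log10 p of 3 to 5 the shares were 54.2% and 5.23%, and at 5 to 7 they were 69.6% and 2.56%, so the order held at similar peak strength. All 4 lists were called against the same IgG file, so its fluctuations are common to RARα and BATF and their part in these shares was not tested.

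**Figure D4:**
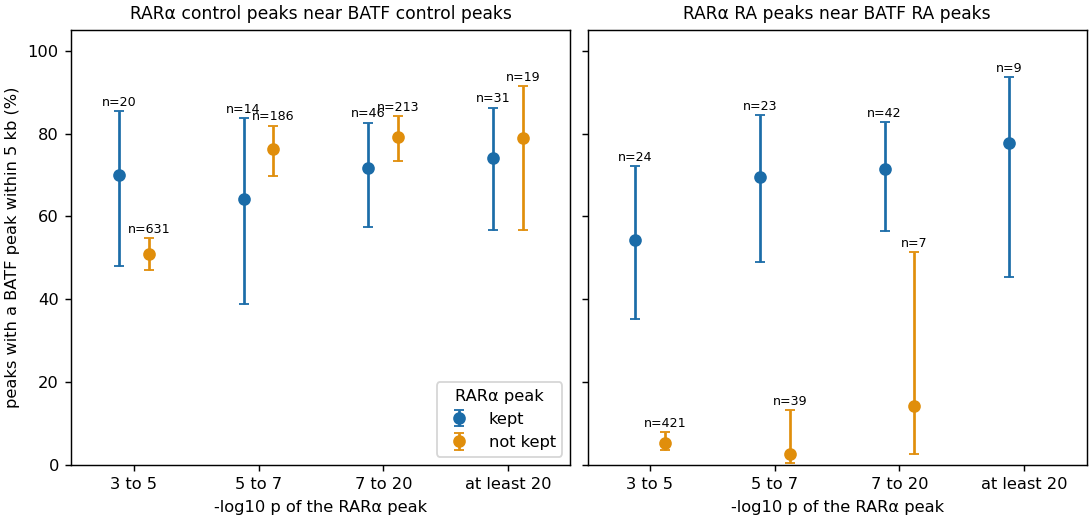
Percent of RARα peaks with a BATF peak of the same condition within 5 kb, by the −log10 p of the RARα peak, for kept peaks (blue) and the others of the same list (orange); bars are Wilson 95% intervals and n is the number of peaks. In the control panel the intervals overlap in every class but show no steady order, and in the RA panel kept peaks lie far above the others up to a −log10 p of 7.

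Where a kept RARα peak overlapped a BATF peak directly, the summits were close. In the control, 40 of 65 such peaks (61.5%, 49.4 to 72.4) had the BATF summit within 100 bp, with a median distance of 72.0 bp. Of the other RARα control peaks that overlapped BATF, 255 of 561 did (45.5%, 41.4 to 49.6), with a median of 122 bp. At a −log10 p of at least 7 the shares were 64.7% of 51 and 59.5% of 173, and their intervals overlapped. With RA, 28 of 54 kept peaks (51.9%) and 2 of 15 others had the BATF summit within 100 bp. At a −log10 p of at least 7 it was 20 of 31 kept peaks. None of the others that overlapped BATF were that strong, so the 2 groups of RA peaks differ in strength.

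The RARα values that chose the sites are given by BATF state as a description. At the 59 sites with BATF in both lists RARα fold was lower with RA at 52 (88.1%), with a median ratio of 0.664. At the 25 sites without BATF it was lower at 15 (60.0%), with a median ratio of 0.898. The latter were lower in the control, at a median of 4.36-fold against 5.90-fold. Among sites of at least 5-fold in the control, 43 of 44 with BATF in either list and 6 of 8 without it were lower with RA, at median ratios of 0.590 and 0.826. Below 5-fold the counts were 19 of 28 and 9 of 17, at 0.896 and 0.965.

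The tallest kept sites without BATF were those near Sdr39u1, at Virma, near Cntn5, near Tmed10 and at Gemin2. The Cntn5 site is remote from genes, 608918 bp from this contactin gene, and had 35 and 23 fragments. Gemin2, a member of the SMN complex that assembles spliceosomal particles, had a control peak of 23 fragments and an RA peak of 10, 898 bp apart. Dtx4, P2rx7 and Nrip1 also belonged to the sites without BATF, so that of the 6 genes known to be induced by RA 3 had BATF in both lists (Nt5e, Lif and Gfi1), 2 had none and Ccr9 had it in the RA list alone.

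BATF peaks at kept RARα sites were mostly called in both conditions. Of 96 BATF control peaks at kept sites 89 had a BATF RA peak within 5 kb (92.7%, 85.7 to 96.4). The share was 86.3% of 1036 BATF peaks at RARα control peaks that were not kept, 68.6% of 14678 elsewhere and 69.9% over the whole list. Strong BATF peaks were retained more often everywhere. Below 5-fold BATF enrichment the 3 shares were 89.3%, 81.0% and 51.8%, from 5-fold to 10-fold 92.6%, 85.6% and 76.9%, and from 10-fold on 100%, 100% and 97.9%. The BATF RA pool held 71.1% of the fragments of the control pool, and the part of depth in losing BATF peaks was not tested.

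BATF fold enrichment at the 59 sites with both peaks was 7.68 in the control (median) and 6.20 with RA, with a median ratio of 0.916. It was lower with RA at 39 of the 59 (66.1%, 53.4 to 76.9). Over all 11046 BATF control peaks with an RA partner the share was 78.4% (77.6 to 79.1), with a median ratio of 0.813. The strongest BATF peak within 5 kb was taken in each list, so some ratios pair different positions. With only BATF peaks that overlap the RARα peak, the fold was lower at 33 of 50 (66.0%). BATF strength was not matched, as the median over all BATF control peaks was 5.40-fold. A decrease of at least 1.5 times was seen at 7 of the 59, against a background of 22.7%, and an increase of that size at 3, against 1.72%. The deposited fold enrichment of BATF compares pools of different depth. Fragments scaled to pool size were lower with RA at 33 of the 59 (55.9%) and at 75.4% of all pairs, with median ratios of 0.938 and 0.844.

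**Figure D5:**
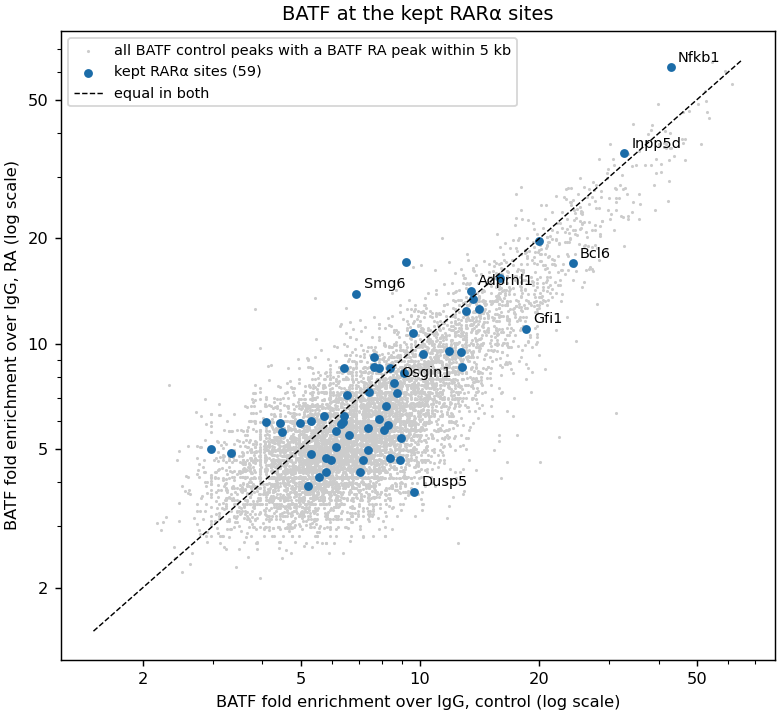
BATF fold enrichment over IgG in the control (horizontal) and with RA (vertical), both on a log scale, for all BATF control peaks with a BATF RA peak within 5 kb (grey) and for the strongest BATF peaks at 59 kept RARα sites (blue). The dashed line marks equal values, and 39 of the 59 blue points lie below it.

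The highest BATF enrichments at kept sites, picked after their values were seen, were at Nfkb1, Inpp5d, Bcl6 and Mgat5. In the intron of Nfkb1, a subunit of NF-κB, BATF was 42.9-fold in the control and 61.9-fold with RA, while RARα had 51 and 29 fragments. In Inpp5d, which encodes the phosphatase SHIP1, BATF was 32.7-fold and 35.0-fold, while RARα had 28 and 12 fragments. The RARα fragment ratios were 0.573 (0.350 to 0.922) at Nfkb1 and 0.432 (0.200 to 0.877) at Inpp5d, while BATF enrichment was not lower. The RARα lists chose the members and the sites were picked by BATF, so this is a description. A site 165050 bp from Bcl6, a transcriptional repressor active in memory and follicular helper T cells, had BATF at 24.3-fold and 17.0-fold. These BATF peaks did not overlap the tallest RARα peaks of the site (7.38-fold and 5.40-fold) but a weaker RARα control peak of 3.72-fold. At Smg6 both factors were higher with RA: BATF went from 6.91-fold to 13.9-fold beside RARα at 6.18-fold and 9.86-fold.

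At 7 kept sites a BATF peak was called with RA alone. These are 7 of the 87 BATF RA peaks at kept sites (8.05%, 3.95 to 15.7), against 3.72% of all 9894 BATF RA peaks. The one at the Ccr9 site, chr9:123740851-123741167, had 48 fragments and a fold of 16.2, the highest of all 368 BATF RA peaks without a control peak within 5 kb. The nearest BATF control peak lay 6383 bp away. RARα at this site had 47 fragments in the control and 24 with RA, as given above, so the higher list differed between the factors. Among the 7, the next by fold lay in the Gimap cluster, near Gimap3, with 24 BATF fragments at 7.91-fold (rank 17 of the 368), followed by the site 130317 bp from Tpra1, where RARα had 63 and 38 fragments and BATF reached 6.61-fold with RA (rank 44). Those at Sorcs2, Zfp747, Clic5 and Lamc1 had between 13 and 19 fragments. With 1 list per condition, no error between cultures can be given for any of them.

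The 6 sites with BATF in the control alone were at Fam102a, Tg with Sla, Rab20, Tmem217 near Pim1, Ncf4 and Cfap54, chosen by this pattern. Their BATF control peaks had between 24.7 and 34.6 fragments. RARα fold there was lower with RA at 4 of the 6.

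By the authors' annotation, kept control peaks lay in much the same places as the other control peaks. Promoters held 22.5% of them (25 of 111, 15.7 to 31.1) and 19.4% of the others, introns 34.2% of both, and intergenic sequence 42.3% and 43.6%. Kept RA peaks were placed alike, with 21.4% in promoters (21 of 98, 14.5 to 30.5) and 42.9% between genes. The RA peaks without a control peak differed, with 5.14% in promoters (3.48 to 7.53) and 62.3% between genes. At a −log10 p of 3 to 5 the promoter shares in the RA list were 29.2% of 24 kept peaks (14.9 to 49.2) and 5.23% of 421 others (3.48 to 7.79). At 5 to 7 they were 21.7% (9.66 to 41.9) and 5.13% (1.42 to 16.9), which overlap. The intergenic intervals overlapped in both classes, at 45.8% of kept and 61.5% of other peaks from 3 to 5 and at 39.1% and 69.2% from 5 to 7.

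Repeat annotation differed mainly by LINE elements. LINE elements were annotated at 5.10% of kept RA peaks (5 of 98, upper bound 11.4%) and at 22.7% of RA peaks without a control peak (19.1 to 26.7), while kept and other control peaks had 8.11% and 7.44%. Any repeat was annotated at 23.5% (16.2 to 32.8) and 46.9% (42.4 to 51.4) of RA peaks. LTR elements (9.18% and 12.8%) and SINEs (5.10% and 7.28%) had overlapping intervals. At a −log10 p of 3 to 5 the LINE shares were 8.33% (2.32 to 25.8) and 21.9% (18.2 to 26.0) and those of any repeat 33.3% and 45.1%, both with overlapping intervals. At 5 to 7 the LINE intervals overlapped, at 4.35% and 30.8%, whereas those of any repeat did not, at 17.4% (6.98 to 37.1) and 64.1% (48.4 to 77.3). The tallest kept promoter sites were at Cfl2, a muscle-type cofilin, near Smarca4 and at Adgre5, the adhesion receptor CD97, with 31 and 21, 29 and 12, and 32 and 21 fragments. Of the 97 sites 56 lay inside a protein-coding gene, 70 inside or within 10 kb of one, and 7 were more than 100 kb from any.

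RARα fold by annotation class was lower with RA at 18 of 20 promoter sites, 26 of 34 intronic sites and 33 of 42 intergenic sites, at median ratios of 0.756, 0.653 and 0.803. These counts, too, use the contrast that chose the members. The 1 site classed as exonic, Dtx4, which the detailed annotation places in intron 7, had 21 and 25 fragments, within counting error.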

How the data were processed

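RARα and BATF ChIP-seq peak lists of mouse CD8 T cells with and without RA were used. The authors aligned reads with Bowtie2 and called peaks with MACS 2.2.7.1 on mm10 (effective genome size 1870000000 bp) with a p-value cutoff of 0.001 (RARα) or 1e-05 (BATF). The submitters' processing notes also name HOMER. The deposited pileup is a signal, the fragments at the summit (scaled by 0.9875 in the BATF control list). The deposited fold enrichment is a ratio, pileup plus 1 over local IgG plus 1, from which the IgG level was recovered. The deposited p-value and q-value are −log10 values. The headers say that q-values were not calculated although the column is filled, so they served only as an alternative.

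Peaks were widened by 5 kb on each side, any overlap counted, and chained members formed a site represented by its strongest peak in each list. Shares have Wilson 95% intervals and fragment ratios exact 95% intervals from the binomial distribution, scaled by pool size. Both cover counting error only. Peak numbers not present in the lists (121, 130, 416 and 257 for RARα control, RARα RA, BATF control and BATF RA) were not analysed here, and peaks on scaffolds were left out. Genes named were those at the 15 highest control and 10 highest RA folds, the 5 highest and 5 lowest ratios, the 3 highest per annotation class, the 5 highest without BATF, the 3 peaks on either side of the distance limit and all genes of 8 lists. Sites named for their BATF peaks (highest BATF fold, BATF in 1 list alone), for a tall control peak that was not kept, or for their position (neighbouring or not overlapping peaks) were chosen after their values were seen. Members and lists were chosen with earlier results of these data known. Annotation gene names matched RefSeq (GRCm38.p6, positions of genes) for 2250 of 2257. Distances to the nearest coding gene come from that table. Tables were made in Python 3.11.15 with pandas 2.3.3 and numpy 2.4.6, intervals with scipy 1.17.1 and plots with matplotlib 3.10.9, and the overlap steps were tested on simulated data. Alternatives were other distances, thresholds, pairings and merged peaks. Sequence and motifs were not analysed here.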

Additional observations from a re-analysis of the deposited data

How the results depend on the processing

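There was 1 pooled list per condition and no replicates. Counting intervals included 1 at most single sites, and intervals on shares cover counting error only. Of 55 alternative values 46 stayed close to the reported value (shares within its 95% interval, counts within 1.5 times), 9 moved and 0 changed direction. A q of 0.05 in both lists left 60 control peaks, 55 RA peaks and 55 sites of 111, 98 and 97. A fold of at least 5 in both lists left 19, 19 and 19, and both thresholds admit fewer peaks by construction. Counting BATF by at least 1 bp of overlap gave 58.6% of kept control peaks (71.2% within 5 kb) and 55.1% of kept RA peaks (67.3%), and a BATF fold of at least 5 gave 50.0% of kept RA peaks. Thresholds of 1e-05 on RA or on both lists were added after seeing the data and left the share of sites lower with RA within its interval. Motif alternatives were not run, since no genome sequence was used, and distance to genes is given in the text in place of another class. No paired analysis was possible because each list pools its files and carries no replicate number.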
